A study of Arabidopsis thaliana with 163 samples.

Results

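The genes described here encode the machinery that receives the jasmonic acid (JA) signal and turns it into repression or activation of target genes in Arabidopsis thaliana. There are 9 of them among 27432 nuclear protein-coding genes: the receptor gene COI1 (AT2G39940), the corepressor genes NINJA (AT4G28910), TPL (AT1G15750), TPR1 (AT1G80490) and TPR4 (AT3G15880), the histone deacetylase genes HDA6 (AT5G63110) and HDA19 (AT4G38130), and the coactivator genes HAC1 (AT1G79000) and MED25 (AT1G25540). They were chosen by name, as genes whose mutants the study used, and every listed domain or peak that overlapped the gene body or the 2 kb upstream of its start was taken. The labels name 8 mutant genotypes, none of which is coi1 or hda19, so that description did not hold for COI1 and HDA19. All 9 genes lie on the minus strand.

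The material was whole seedlings, 10 days old, whose chromatin was immunoprecipitated and sequenced (ChIP-seq). The groups used here were untreated wild-type Col-0 seedlings profiled for H3K9ac with PHILO ChIP-seq, a plate-based low-input protocol (3 libraries), against regular ChIP-seq (2 libraries). Pools of untreated Col-0 PHILO libraries were profiled for H3K4me3, H3K36me3 and H3K27me3, and pools of Col-0 seedlings given JA for 2 h were set against untreated control pools in a time course and in a separate large-scale experiment, with 3 libraries on each side. The MYC2 peak list came from myc2 seedlings that carry MYC2:MYC2-FLAG, a tagged MYC2 under its own promoter, and by the study's methods compares 2 h of JA with control; the labels of those libraries name the antibody and genotype of another group, and the file does not state its sides. JA was given as gaseous methyl jasmonate. One IgG library, made with an antibody without a specific target, served as control for every mark, and the mutant libraries were not analysed here.

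In a resting cell JAZ proteins bind MYC transcription factors and recruit NINJA, which carries TOPLESS (TPL) and its relatives, and these bring histone deacetylases that remove acetyl groups from histones. When the hormone is present, the F-box protein COI1 captures JAZ proteins for degradation, and MYC2 then works with MED25, a subunit of the Mediator complex, and HAC1, a histone acetyltransferase. H3K9ac and H3K4me3 mark the starts of active genes, H3K36me3 marks transcribed gene bodies, and H3K27me3 marks silenced genes.

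Domains held 8986137 to 13807286 H3K9ac reads in the PHILO libraries and 10705391 to 11606919 in the regular libraries, and the start domain of each of the 9 genes held 350 reads or more in every library. The regular pair differed by less than sampling noise (chi-square per degree of freedom 0.862 over 4833 domains with the same ends, against 1.58 to 2.20 for pairs of PHILO libraries), so both values are given below and their mean is counted as 1 sample where levels are described. The fits below take the pair as 2 libraries, and limma was also run with the pair as 1. As a check of the tissue, 4 of 4 photosynthesis genes had H3K9ac and H3K4me3 domains, and 6 of 6 seed and flower genes had H3K27me3 domains with H3K4me3 at 0 of 6. Against this pattern, H3K27me3 lay at 1 of 4 photosynthesis genes, H3K36me3 at only 1 of 4, and H3K9ac and H3K36me3 each at 1 of 6 seed and flower genes. The list of pooled H3K9ac is labelled as a PHILO merge. Yet its counts were near the sum of the regular libraries (median ratio 1.02) and below that of the PHILO libraries (median ratio 0.665). They did not equal the regular sum everywhere. The HDA19 start domain held 826 reads in the pool, against 430 and 350 in the regular libraries. Which libraries were pooled was therefore not settled, and the lists of single libraries are used first here.

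All 9 genes carried the marks of active genes. In each of the 5 single-library lists 9 of 9 genes had an H3K9ac domain, where the share over all protein-coding genes was 75.0%, 73.7% and 73.7% for PHILO replicates 1 to 3 and 72.6% and 72.4% for regular replicates 1 and 2. In the pooled lists 9 of 9 genes had H3K9ac (75.5% of all genes), 9 of 9 had H3K4me3 (72.7%) and 9 of 9 had H3K36me3 (66.8%). H3K27me3 was found at 1 of 9, against 42.4% of all genes. That exception was NINJA, and the domain, chr4:14268001-14277400, ended 1215 bp upstream of its start and lay over AT4G28920, AT4G28930 and AT4G28940. It covered 0% of the NINJA gene body, as H3K27me3 did for the other 8 genes.

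The marks were laid out along the genes in the same order. H3K4me3 covered between 13.3% (TPR4) and 36.7% (HDA6) of a gene body, as a domain of 800 to 1200 bp at the start, and at HDA6 and HDA19 a second domain touched the 3' end. H3K36me3 covered between 72.7% (NINJA) and 98.0% (TPR1). Its first listed base lay inside the gene at COI1 (64 bp), NINJA (186 bp), TPL (33 bp), TPR1 (125 bp), TPR4 (93 bp), HDA19 (109 bp) and MED25 (215 bp), while at HDA6 the domain began 53 bp and at HAC1 2252 bp upstream of the start. Domains are made of 200 bp windows, so smaller offsets are not resolved. H3K4me3 began at the same base as H3K36me3 at COI1, TPL and HDA6. It began 14, 75, 107, 91 and 52 bp upstream of the start at NINJA, TPR1, TPR4, HDA19 and HAC1, and 15 bp inside MED25. At TPR1, HDA19 and HAC1 the H3K36me3 domain, of 8600, 10000 and 9600 bp, ran on into the neighbouring gene, AT1G80480, AT4G38120 and AT1G79010 in that order.

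**Figure D1:**
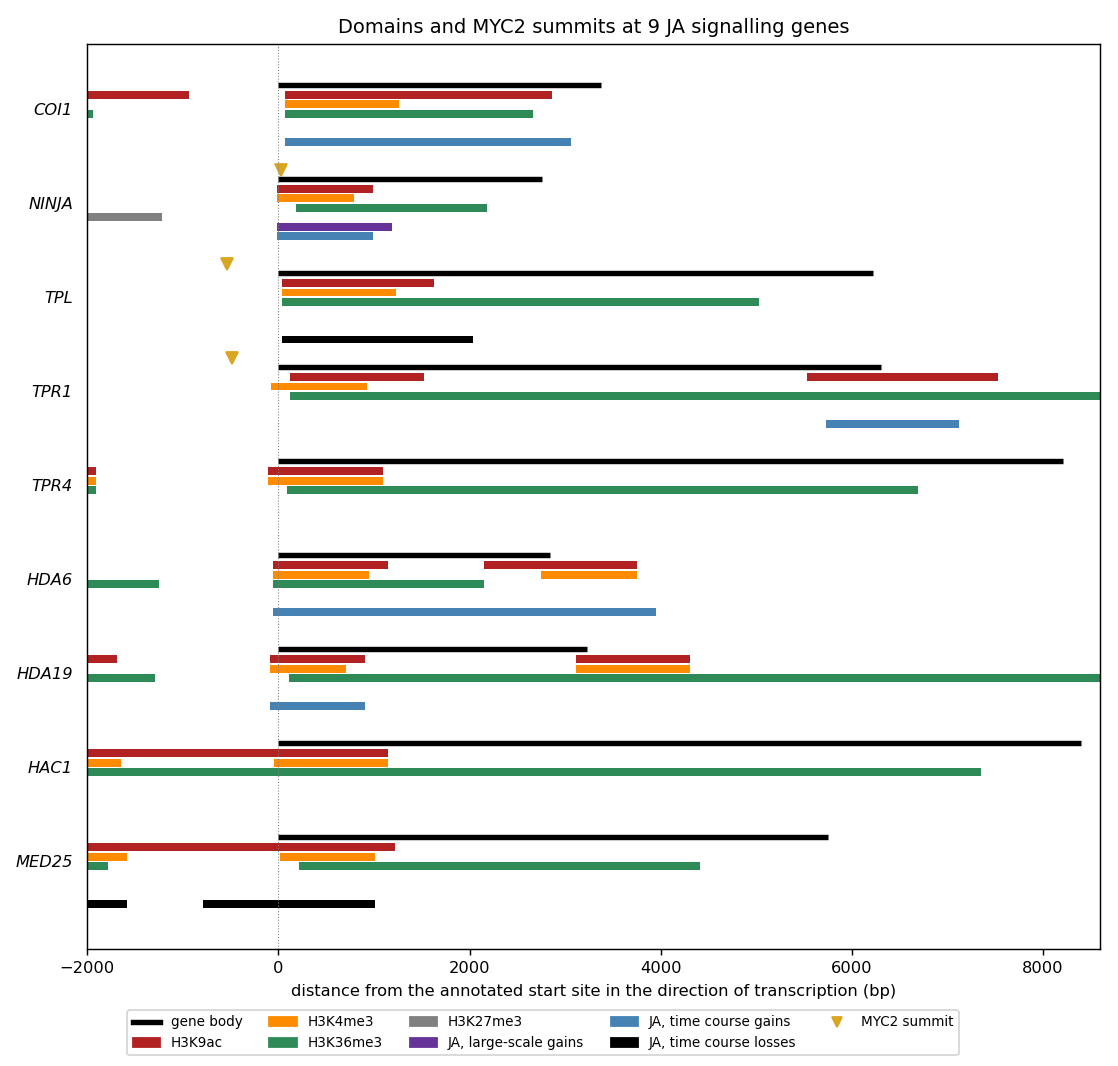
Domains of the pooled lists and MYC2 summits at the 9 genes, drawn as distance from the annotated start site in bp, with the gene body in black and a row for each list. Each start has H3K9ac and H3K4me3, and H3K9ac also lies at the 3' ends of TPR1, HDA6 and HDA19. Pooled H3K9ac covers 83.0% of COI1, against 41.5% to 65.2% in the lists of single libraries, which are not drawn. H3K36me3 spans 72.7% to 98.0% of the bodies, and the only H3K27me3 domain lies upstream of NINJA. Domains that run past the axis are clipped.

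The receptor gene COI1 carried the most H3K4me3 and H3K36me3 of the 9 genes. COI1 encodes the F-box subunit of the SCF ubiquitin ligase that binds the hormone together with a JAZ protein. Its H3K4me3 domain, chr2:16674601-16675800, held 1786 reads against 80 IgG reads, a log2 fold over IgG of 3.58 after scaling by library totals, which was at percentile 99.5 of the 17053 genes with a domain on their first kb. Its H3K36me3 log2 fold of 2.46 was at percentile 99.1. The H3K9ac of the domain at its start had a log2 fold over IgG of 2.24, 2.41 and 2.16 in the PHILO libraries and of 1.41 and 1.27 in the regular libraries. The groups did not overlap, and the PHILO mean of 2.27 ± 0.13 (SD, n = 3) lay at percentile 76.6 of all genes while the regular mean of 1.34 lay at percentile 37.6. The difference of 0.93 was at percentile 96.6 of the 16252 genes with a start domain in all 5 lists, whose median was 0.54. The listed domain was also narrower in the PHILO lists, 1400, 1400 and 1600 bp, than in the regular lists, 2000 and 2200 bp, and the part of this width in the fold was not tested.

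Among the corepressor genes H3K9ac was high at TPL and low at TPR4. NINJA encodes the adaptor that links JAZ proteins to TOPLESS, and TPL, TPR1 and TPR4 encode members of the Groucho-type TOPLESS family. TPL had a log2 fold over IgG of 2.33, 2.56 and 2.55 in the PHILO libraries and of 1.88 and 1.99 in the regular libraries. Every PHILO value lay above both regular ones, and the PHILO mean of 2.48 ± 0.13 (SD, n = 3) was at percentile 89.0. TPR1 had 2.21, 2.26 and 2.12 in the PHILO libraries and 1.86 and 1.90 in the regular libraries. Its PHILO mean of 2.20 ± 0.07 (SD, n = 3) was at percentile 70.6 and its regular mean of 1.88 at percentile 90.2. TPR4 had 1.47, 1.58 and 1.37 in the PHILO libraries and 1.04 and 1.27 in the regular libraries. Its mean was the lowest of the 9 genes in both protocols, at percentiles 13.1 (PHILO mean 1.47 ± 0.10, SD, n = 3) and 19.6 (regular mean 1.16). In regular replicate 2 TPR4 and COI1 were level, both at 1.27. The H3K36me3 log2 fold of TPR4, 2.07, was at percentile 80.5 all the same. NINJA had 2.14, 2.21 and 2.31 in the PHILO libraries and 1.63 and 1.68 in the regular libraries, with a PHILO mean of 2.22 ± 0.09 (SD, n = 3). NINJA had the lowest H3K4me3 of the 9 genes, a log2 fold of 2.41 at percentile 31.6.

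The deacetylase genes HDA6 and HDA19, both for enzymes of the RPD3 type, stood high for H3K4me3. Its log2 fold was 3.40 at HDA6 (percentile 97.5) and 3.19 at HDA19 (percentile 91.7). HDA6 had an H3K9ac log2 fold of 2.38, 2.39 and 2.39 in the PHILO libraries and of 1.75 and 1.63 in the regular libraries. The 3 PHILO values were the closest of any of the 9 genes (mean 2.39 ± 0.01, SD, n = 3). Counting error alone was far wider than this spread, at 1.99 to 2.79 for PHILO replicate 1 (95% exact Clopper-Pearson interval). A second H3K9ac domain began 1947 to 2747 bp downstream of the HDA6 start and ran into AT5G63100, with log2 folds of 2.04, 2.14 and 1.70 in PHILO and 1.05 and 1.04 in regular libraries. HDA19 had 2.09, 2.25 and 2.19 at its start in the PHILO libraries and 1.60 and 1.46 in the regular libraries, a PHILO mean of 2.18 ± 0.09 (SD, n = 3).

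The coactivator genes differed from each other. HAC1, for the acetyltransferase, had a log2 fold of 2.01, 1.90 and 1.65 in the PHILO libraries and of 1.39 and 1.32 in the regular libraries, with a PHILO mean of 1.85 ± 0.19 (SD, n = 3) at percentile 38.1. In PHILO replicate 3 and regular replicate 2 its start domain was merged with one over AT1G79010, and these were the lowest values of each protocol. MED25 had 2.32, 2.32 and 2.59 in the PHILO libraries and 1.79 and 1.86 in the regular libraries, with a PHILO mean of 2.41 ± 0.15 (SD, n = 3) at percentile 85.5. In each list the domain was 4200 to 6800 bp wide and also held AT1G25550, annotated as a myb-like transcription factor gene, so its level is not that of MED25 alone.

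Ordered by the PHILO mean, the genes ran TPL, MED25, HDA6, COI1, NINJA, TPR1, HDA19, HAC1 and TPR4. No neighbours among the first 7 differed by more than the larger of their SDs, whereas HAC1 lay 0.32 below HDA19 and TPR4 lay 0.38 below HAC1, both gaps beyond the SD. Without any 1 of the PHILO libraries HAC1 and TPR4 stayed the last in the order, and without PHILO replicate 3 the number of gaps beyond the SD was 4 in place of 2. For the 9 genes 7 PHILO means lay above the all-gene median of 1.98 and 6 regular means above the median of 1.44.

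**Figure D2:**
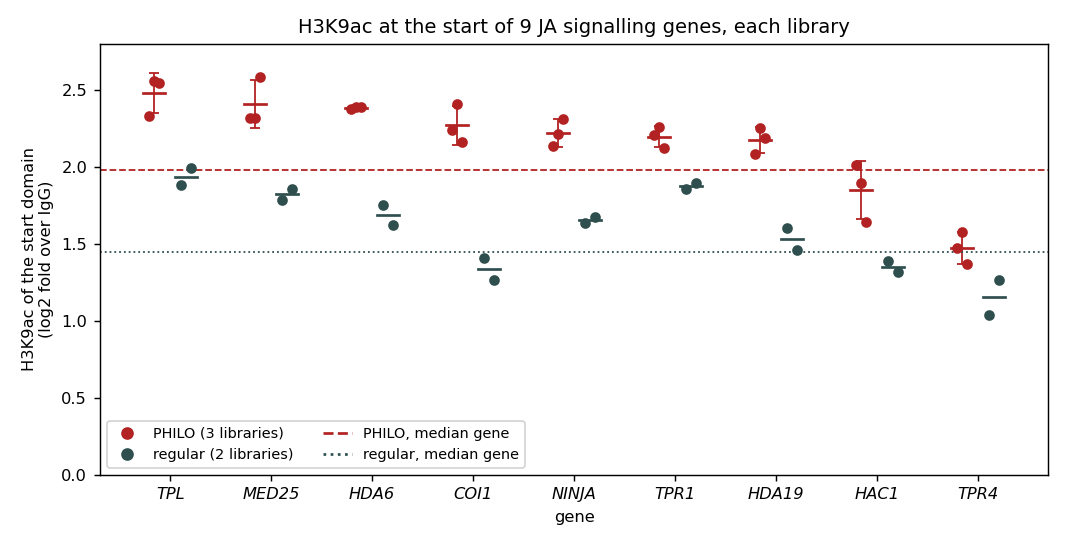
H3K9ac of the domain at each gene's start, as log2 fold over IgG, with a point for each library, bars for means, whiskers for the SD of the 3 PHILO libraries, and dashed and dotted lines for the median gene of PHILO (1.98) and regular (1.44) lists. PHILO values lie above regular values at all 9 genes, as at 91.5% of all genes. COI1 has the widest gap (0.93), and TPR4 has the lowest mean in both.

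**Figure D3:**
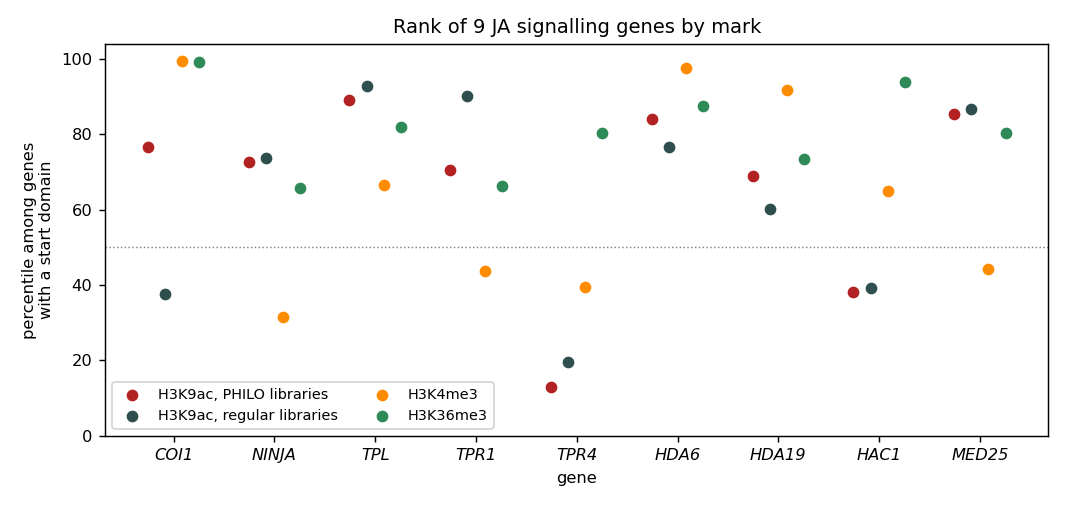
Percentile of each gene among all protein-coding genes with a domain of that mark on their first kb (y axis, 0 to 100). All 9 genes lie above the median for H3K36me3, COI1 reaches 99.5 for H3K4me3, and TPR4 is at 13.1 and 19.6 for H3K9ac.

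PHILO and regular libraries were compared to ask whether the low-input protocol gives these genes the same H3K9ac. At 9 of 9 start domains every PHILO value lay above both regular values, as it did at 91.5% of all genes. A gene-level value, the mean log2 fold over the gene body weighted by overlap, was then fitted with limma on 16700 genes after each library was centred on its median gene. With this centring 0 of 9 genes passed an adjusted p of 0.05 (limma, Benjamini-Hochberg), against 0.263% of all genes, and 2 of 9 had an unadjusted p under that value, against 15.8% of all genes. These were COI1, 0.39 ± 0.11 higher in PHILO than the median gene (SE; adjusted p = 0.22), and HDA6, 0.32 ± 0.10 higher (SE; adjusted p = 0.24). The HDA6 value took in the domain shared with AT5G63100, over 95, 95 and 495 bp of the body in PHILO lists and 895 and 695 bp in regular lists. The HDA6 start domain alone differed by 0.70, at percentile 81.6 of all genes, whose median was 0.54. The part of the shared domain in the HDA6 difference was not tested. With the regular pair counted as 1 the standard errors of COI1 and HDA6 were both 0.13 and limma's unadjusted p of HDA6 was 0.070, and with the highest overlapping fold as the gene's value the difference of HDA6 was 0.15 (unadjusted p = 0.128). TPR4 and TPR1 had centred differences of -0.23 ± 0.10 and -0.19 ± 0.09 (SE; adjusted p = 0.35 and 0.38), and the other 5 lay between -0.05 and 0.12. TPR4 was at -0.14 without regular replicate 2, TPR1 at -0.12 without PHILO replicate 3 and HDA19, at 0.12 with all libraries, at 0.03 without regular replicate 2. Without centring, the fit called 9 of 9 genes higher in PHILO, from 0.32 (TPR4) to 0.93 (COI1), against 86.5% of all genes, and the median of all genes was then 0.54 higher in PHILO. With the regular libraries also counted as 1 it called 7 of 9 higher, against 72.4% of all genes.

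**Figure D4:**
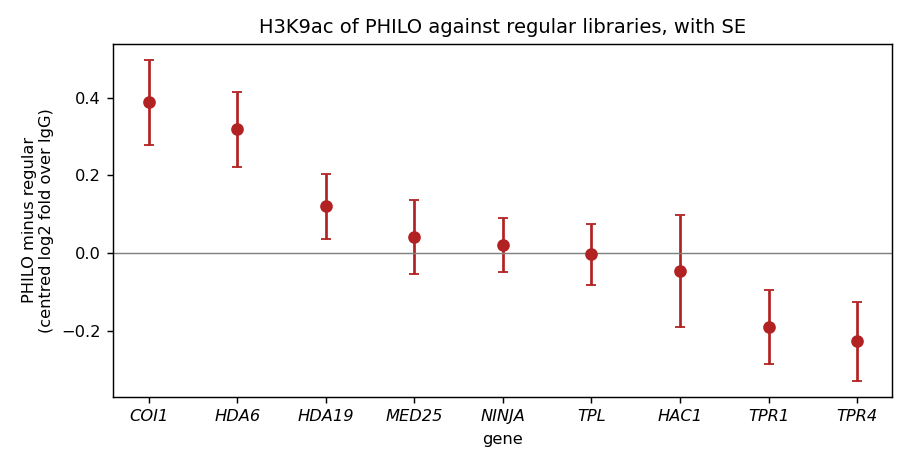
PHILO minus regular H3K9ac of each gene on the centred log2 scale, with limma's standard error. COI1 (0.39) and HDA6 (0.32) lie highest and TPR4 (-0.23) lowest, and no gene passed the adjusted threshold.

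Counts could be tested directly at 1 gene. The HDA19 start domain, chr4:17898601-17899600, had the same ends in all 5 lists and held 500, 392 and 350 reads in PHILO and 430 and 350 reads in regular libraries. Both tests scaled the libraries on the 1167 domains with the same ends, which removes a shift shared by most domains (median log2 difference -0.007 and -0.003). After this scaling its PHILO level was 0.05 higher on the log2 scale by edgeR's quasi-likelihood test (adjusted p = 0.605). By DESeq2 it was 0.06 higher (adjusted p = 0.798). The shares called were 23.7% and 8.14% of the 1167 domains. As log2 fold over IgG, scaled by library totals, the PHILO mean at the HDA19 start was 0.65 above the regular mean.

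Listed changes of H3K9ac after JA were small at these genes, at most 0.40 on the log2 scale. Of the 9 genes 7 had a listed JA-changed domain in either experiment, against 41.1% of all genes. In the time course 5 of 9 had a gain (21.1% of all genes) and 2 of 9 a loss (16.3%). In the large-scale experiment 1 of 9 had a gain (13.1%), and 1 of 9 had gains in both experiments (7.22%). A list of losses was analysed for the time course only. Each list rests on pooled libraries, so intervals below are 95% exact Clopper-Pearson intervals that cover counting error only, with no replicate spread.

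NINJA was the gene with a gain in both experiments. In the large-scale experiment its start domain, chr4:14265601-14266800, held 481 reads after JA and 394 in control, a log2 ratio of 0.36 (interval 0.17 to 0.56) after scaling. In the time course chr4:14265801-14266800 held 454 reads after JA and 370 in control, a log2 ratio of 0.31 (interval 0.11 to 0.51). The ratios were at percentiles 66.3 and 67.0 of their lists. Both domains held the same 1000 bp at the start of NINJA. The combination of marks, JA lists and a MYC2 peak found at NINJA, with the upstream H3K27me3 domain counted, was shared by 164 other genes, 0.598% of all. For the combinations of the other members this share ran from 1.03% (TPL) to 19.4% (TPR4 and HAC1).

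TPR1 had the largest gain in the time course, but not at its start. The domain, chr1:30260001-30261400, began 5725 bp downstream of the TPR1 start and ran across the 3' end into PTAC17 (AT1G80480), a gene for a protein of the plastid transcription complex whose start it covers. It held 426 reads after JA and 327 in control, a log2 ratio of 0.40 (interval 0.19 to 0.61), at percentile 80.2 of the list. The start domain of TPR1 was in no JA list.

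The gains at the receptor and deacetylase genes were smaller than the list median of 0.24. COI1 held 829 reads after JA and 748 in control over 3000 bp of its body, a log2 ratio of 0.16 (interval 0.02 to 0.31). HDA19 held 370 and 321 reads at its start after JA and in control, a log2 ratio of 0.22 with an interval whose lower end was 0.0004. HDA6 held 1161 reads after JA and 1080 in control, a log2 ratio of 0.12 (interval -0.0014 to 0.24), and this domain of 4000 bp also held AT5G63100. It was at percentile 5.3 of the list. The counting interval lay above 0 for 4 of the 5 time course domains at these genes, against 72.7% of all listed gains, and for the 1 large-scale domain, against 80.2%.

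The losses lay at TPL and MED25. In that list the control is the treatment side, and ratios are turned here to JA over control. TPL held 674 reads after JA and 745 in control over 2000 bp from its start, a log2 ratio of -0.13 (interval -0.28 to 0.02), at percentile 6.1 of the list by size. MED25 held 470 reads after JA and 546 in control at its start, a log2 ratio of -0.20 (interval -0.38 to -0.02). A stronger loss held 1617 reads after JA and 2095 in control, a log2 ratio of -0.36 (interval -0.45 to -0.26). It was assigned to MED25 by its 2 kb upstream but lay wholly off the gene body, 1586 to 5585 bp upstream. This domain of 4000 bp covered most of AT1G25550 and ran on past its 3' end. For 2 of these 3 domains the interval excluded 0, against 81.3% of all listed losses. TPR4 and HAC1 had no JA-changed domain.

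**Figure D5:**
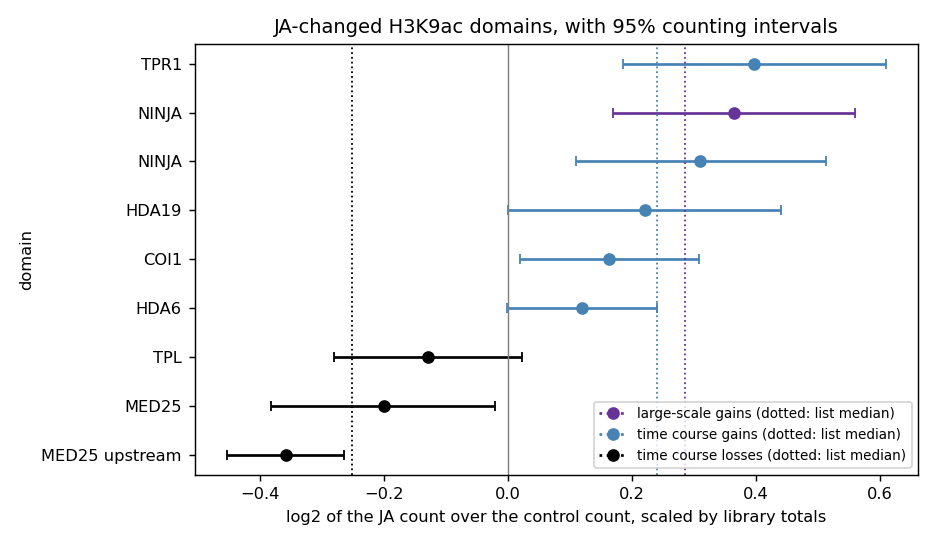
JA-changed H3K9ac domains at the 9 genes as log2 of JA over control counts with 95% counting intervals, coloured by list, with dotted lines at the median of each list. NINJA (0.36 and 0.31) and TPR1 (0.40) lie beyond the medians of the gains, COI1, HDA19 and HDA6 below them, and the intervals of HDA6 and TPL include 0.

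The number of changed genes depended on the threshold. With a log2 ratio of at least 0.25, or with an FDR of at most 0.001, time course gains were left at NINJA and TPR1. The loss left was the upstream one at MED25 that overlapped AT1G25550. With a domain required on the first kb of the gene, NINJA, COI1, HDA6 and HDA19 had gains in the time course and TPL and MED25 losses.

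MYC2 peaks lay at 3 of the 9 genes, all corepressors, against 12.5% of all genes. MYC2 is the basic helix-loop-helix factor that these proteins repress or activate. The peak at TPL, chr1:5421434-5421692, had its summit 540 bp upstream of the start, with a fold enrichment of 3.43 (percentile 85.7 of 3464 peaks) and a −log10 q of 12.5. The peak at TPR1, chr1:30267299-30267785, had its summit 482 bp upstream, with a fold of 2.88 (percentile 66.9) and a −log10 q of 11.9. The peak at NINJA, chr4:14266580-14266898, had its summit 29 bp downstream of the start in an untranslated exon, with a fold of 1.88 (percentile 5.8) and a −log10 q of 13.2. Its fold was low and its q like those of the other peaks, and the median fold of all peaks was 2.59. At TPL and TPR1 the summit lay in intergenic sequence outside any listed H3K9ac domain.

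The TPL and TPR1 peaks are shown because both hold the G-box CACGTG to which MYC2 is known to bind, and the NINJA peak because it does not. Sequences are from RefSeq TAIR10.1, whose nuclear chromosomes have the TAIR10 coordinates, on the minus strand and thus in the direction of transcription, covering 100 bp on each side of the summit (chr1:5421473-5421673 and chr1:30267507-30267707) and the upstream end of the NINJA peak (chr4:14266787-14266898). Capitals mark CACGTG. The searches for the variants CACGTT and for CACATG, also on both strands, found no match in these stretches.
TPL: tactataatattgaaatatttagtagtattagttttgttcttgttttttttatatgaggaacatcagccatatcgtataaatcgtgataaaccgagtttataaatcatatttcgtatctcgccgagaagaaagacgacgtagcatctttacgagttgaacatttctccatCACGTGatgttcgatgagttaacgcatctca
TPR1: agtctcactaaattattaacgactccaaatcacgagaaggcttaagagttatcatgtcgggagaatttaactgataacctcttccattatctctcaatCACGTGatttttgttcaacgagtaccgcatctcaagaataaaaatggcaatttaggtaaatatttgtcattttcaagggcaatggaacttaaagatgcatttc
NINJA: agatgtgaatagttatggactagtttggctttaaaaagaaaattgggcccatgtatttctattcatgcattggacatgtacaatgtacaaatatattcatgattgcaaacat

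CACGTG occurs once in the TPL window, 70 bp from the summit and 470 bp upstream of the start. In the TPR1 window it spans the summit and begins 484 bp upstream of the start. The TPL and TPR1 windows share the run atCACGTGat around the motif. A second run, cgcatctca, lies 16 bp after the motif at TPL and 19 bp after it at TPR1. Runs of 9 bases or more were sought at all positions, and how often unrelated windows share such runs was not tested. CACGTG is found in 32.9% of windows of 201 bp around all summits, against 5.66% of 201 bp windows upstream of all protein-coding genes. CACGTT, in neither window, is found in 25.7% and 6.34% of them. In the NINJA peak the letters CACATG occur once, 62 bp downstream of the start and 33 bp from the summit, a variant in 33.4% of summit windows and 9.03% of upstream windows.

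Peaks and JA gains met at 2 of these genes but coincided at 1. At NINJA the summit lay inside the H3K9ac domain that gained in both experiments. At TPR1 the peak was at the 5' end and the gain at the 3' end, and at TPL the domain next to the peak was in the list of losses.

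Genes of the same families were read from the same lists. Of 5 genes listed as partners of the COI1 ubiquitin ligase, not all of them for its subunits, 2 had a large-scale gain. These were ASK1 (log2 ratio 0.11, with a MYC2 peak) and AXR1 (0.20), and 0 of the 5 had a time course gain or loss. Of 4 relatives of TPL, 3 had MYC2 peaks (TPR2, TPR3 and LUG), 1 a large-scale gain (LUG, 0.18), and 2 time course losses, with log2 ratios of control over JA of 0.23 at LUH and 0.19 at LUG. Of 4 relatives of NINJA, the AFP genes of abscisic acid signalling, 3 had MYC2 peaks and AFP3 had gains in both experiments (0.19 and 0.47). AFP2 had a time course gain of 0.14 and AFP4 a loss of 0.28 (control over JA).

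Of 12 other deacetylase genes 5 had large-scale gains, 6 time course gains, 3 both, and 0 had losses or MYC2 peaks. HDA2 (0.15), HDA5 (0.22, in a domain that also counted for HDA18, a gene named after its values were seen) and HDA14 (1.08 large-scale and 0.34 time course) were among them, as was HDA15 (0.29, large-scale). Of 5 other acetyltransferase genes HAG1, the GCN5 homologue, gained in both (0.32 and 0.48) and HAC5 in the time course (0.17), and 0 had MYC2 peaks. Of 10 other Mediator genes 2 had large-scale gains, 3 time course gains and 2 losses. MED13 (0.20) and MED16 (0.28) gained in the time course, MED14 had a loss of 0.30 (control over JA) and a MYC2 peak, and AT5G20170, also with a MYC2 peak, gained in both (0.24 and 0.20).

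The JAZ repressor genes and the MYC genes encode the proteins on which these 9 act. Gains in both experiments lay at 1 of the 9 genes, against 11 of 13 JAZ genes, and MYC2 peaks at 3 of the 9, against 10 of 13. The large-scale and time course log2 ratios were 0.37 and 0.23 at JAZ1, 0.51 and 0.28 at JAZ2, 0.53 and 0.45 at JAZ3, and 0.65 and 0.73 at JAZ5. Over the 11 they ranged from 0.24 to 2.10 in the large-scale experiment and from 0.22 to 2.04 in the time course. All 3 MYC genes had gains in both experiments, MYC2 at 0.71 and 0.45, MYC3 at 0.28 and 0.09 and MYC4 at 0.24 and 0.10, the last with a loss of 0.11 (control over JA) elsewhere in its region. These lists were chosen with results known, and the difference from the 9 genes was not tested.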

How the data were processed

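By the study's account, alignment to TAIR10 used Bowtie2 2.4.1, histone domains came from epic2 0.0.52 (listed as SICER in the submitters' processing notes) and MYC2 peaks from MACS2 2.2.7.1. The 5 H3K9ac libraries were called singly and the other lists on merged replicates. The deposited domain lists give whole-number read counts of treatment and control, not normalized, the caller's p-value and FDR (largest 0.05), and a log2 fold, which equals the log2 ratio of the counts less a constant per file, the ratio of library totals. The authors' MYC2 list gives a fold enrichment, and −log10 p and q values as deposited by MACS2. Reads of these lists carry no molecular identifiers.

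Domains of 200 bp windows were overlapped (1 bp or more) with genes of RefSeq TAIR10.1, in which 75 of 75 listed loci were found. The start domain of a gene is the one with most bases on its first kb. Gene-level values were fitted with limma 3.58.1 (R 4.3.3, Benjamini-Hochberg), and domains with the same ends with edgeR 4.0.16 and DESeq2 1.42.0. The study describes its replicates as biological, and p-values measure the spread between these libraries. Members, comparison lists and alternatives were chosen with earlier results of these data known, and the genes named are the 9, genes under their JA-changed domains or MYC2 peaks, at most 4 changed genes per comparison list, and HDA18, added after its values were seen. Alternatives on libraries (2) and on JA domains (2), as well as the order without a library, were added after seeing the data. Python 3.11.15, pandas 2.3.3, SciPy 1.17.1 and matplotlib 3.10.9 were used.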

Additional observations from a re-analysis of the deposited data

How the results depend on the processing

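H3K9ac, H3K4me3 and H3K36me3 stayed at 9 of 9 genes under every region, overlap and fold limit tried, except H3K9ac at 8 (without TPR4) in the pooled list at a log2 fold of at least 1, and H3K27me3 went to 0 of 9 with the gene body alone or 1 kb upstream. Gains in both experiments stayed at 1 gene (NINJA). With an FDR of at most 0.001 or a log2 ratio of at least 0.25 the time course gains fell to 2 genes, the losses to 1 and any change to 3, and with a counting interval that excludes 0 the losses fell to 1. MYC2 peaks fell to 1 (NINJA) on gene bodies alone.

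In the PHILO against regular comparison limma called 44 genes (20 higher, 24 lower), and 58 genes, 32.8% of them higher against 45.5%, when centred on genes with H3K9ac above the median. Without centring it called 14461 genes and 9 of the 9, and with the regular pair also counted as 1 it called 12106 and 7. With centring and the pair as 1 it called 0 genes (1383 at an unadjusted p under 0.05). Leaving out any 1 PHILO library gave 0 genes (1983 to 3262 unadjusted, 2644 with all). Fits on fewer libraries also have less power, so this does not show that a call rested on any 1 library. On the domains with identical ends edgeR called 276 and DESeq2 95. With the replicate number as a block 0 genes were called (1903 unadjusted). The deviations of same-numbered libraries had correlations of 0.01 and 0.02. As the regular pair differed by less than sampling noise, these correlations cannot decide whether the numbers pair the libraries.

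Signs changed only where values were near 0 or centring was dropped. Without centring TPL was at 0.54, TPR1 at 0.36, TPR4 at 0.32 and HAC1 at 0.50, with the same values when the pair counted as 1. With libraries centred on genes with H3K9ac above the median, NINJA was at -0.0395 and MED25 at -0.0197. Under the replicate block NINJA was at -0.0094, HAC1 at 0.0736 and MED25 at -0.0326, and with 2 kb upstream TPL was at 0.0036. Over the fits that left out a library, COI1 ranged from 0.29 to 0.49, HDA6 from 0.27 to 0.39, HDA19 from 0.03 to 0.21, TPR1 from -0.23 to -0.12, TPR4 from -0.31 to -0.14, NINJA from -0.0094 to 0.0368, TPL from -0.0314 to 0.0445, HAC1 from -0.153 to 0.0736 and MED25 from -0.0326 to 0.0972. The causes were not tested. The order of the genes had 2 to 4 gaps beyond the SD without 1 PHILO library. Pooled lists give counting error only, so changes by JA have no replicate check.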
